A study of Gallus gallus with 106 samples.

Results

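Sarcomeric myosin heavy chains are the motor proteins of the thick filament of muscle. The genes described here are the 4 chicken heavy chains MYH1D, MYH1E, MYH1F and MYH15. They were taken by name from a panel of 569 genes, and each had 1 transcript in the panel. The RNA came from primary satellite cells, the muscle stem cells, of the Pectoralis major (breast muscle) of broiler chickens, labelled wild type. The cells were placed in differentiation medium and kept at 1% O2 (hypoxia) for 12, 24, 36 or 48 h, or at 20% O2 (normoxia) for the same times, and cells at 20% O2 taken just before the change of medium served as the 0 h group of both courses. There were 6 biological libraries in each of the 8 later groups and 5 at 0 h, 53 in all, each the sum of 2 technical replicates. The labels do not tell how many birds, of which age, lie behind the biological replicates, so a p-value here weighs the spread among these cultures, part of which may be technical.

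Myoblasts that leave the cell cycle switch on the genes of the sarcomere, and heavy chain genes are among the best known marks of that step. In birds as in mammals the fast skeletal heavy chains lie side by side in a cluster of close copies, and different members are used at different ages and in different fibres. MYH1D, MYH1E and MYH1F belong to that cluster. MYH15 lies elsewhere and is known in chicken as the heavy chain of the heart ventricle. The study asked how low oxygen acts on satellite cells through myogenic differentiation.

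In the deposited coordinates (galGal6, all on the minus strand) MYH1D spans chr18:376311-398842 with 39 exons and MYH1F spans chr18:407275-424203 with 38 exons, 8432 bases from MYH1D. MYH1E spans chr18:564255-586932 with 38 exons. MYH1B, the other fast heavy chain of the panel, lies between MYH1F and MYH1E at chr18:499232-517534. MYH15 spans chr1:88760863-88804642 with 42 exons. These spans are those of whole transcripts, introns included, and the amplified piece of each is not stated. How reads were assigned among the close copies of the cluster is not stated either, so which copy lies behind each MYH1 value is uncertain.

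The libraries held 171196 to 1448544 counts (median 759253). MYH1D had 559 to 6163 counts in a library, MYH1E 171 to 3743, MYH15 1294 to 8581 and MYH1F 11 to 193, so MYH1F was measured least precisely. Levels are counts-per-million (CPM) scaled by edgeR's TMM factors. They depend on each amplicon, so levels of different genes were not compared, and a ratio between genes was read only for how it changed. Markers of myogenic cells were present, 9 of 10 named being in the panel and above 0 in all 53 libraries, among them PAX7, MYOD1, MYOG and DES. The sum of these 9 ran from 24069 to 33084 CPM in hypoxia and 20350 to 31137 CPM in normoxia at 48 h. At 0 h it ran from 31697 to 35629 CPM, above every normoxia library at 48 h. Of 10 fibroblast markers 7 were in the panel; 6 of them had medians of 1357 CPM (DPT) to 4989.7 CPM (PDGFRA), while COL1A2 had a median of 1.79 CPM and was at 0 in 16 libraries. The sum of the 7 ran from 20889.5 to 24409 CPM in hypoxia and 24237 to 25684 CPM in normoxia at 48 h, and from 21889 to 23201 CPM at 0 h. In normoxia every library at 48 h thus lay above every library at 0 h. All 5 adipocyte markers were in the panel; ADIPOQ, FABP4, LPL and PPARG had medians of 2644 to 6220.0 CPM and PLIN1 one of 15.3 CPM. The sum of these 5 ran from 16386 to 20402 CPM in hypoxia and 15845 to 20467 CPM in normoxia at 48 h, and from 14007 to 16189.7 CPM at 0 h. Here every hypoxia library at 48 h lay above every library at 0 h, while the normoxia range overlapped that at 0 h. Of 6 endothelial markers 4 were in the panel, and their sum ran from 214 to 569 CPM in hypoxia and 95.4 to 245 CPM in normoxia at 48 h, and from 687 to 1469 CPM at 0 h, so it was lower at 48 h than at 0 h in every library. Of these 4, PECAM1 was at 0 in 16 libraries and VWF and ENG had medians of 125 and 134 CPM. Of 4 immune markers PTPRC alone was in the panel, at a median of 0.763 CPM and at 0 in 25 libraries. The part of other cells in the results was not tested, and in bulk RNA more cells that express a gene and more RNA per cell cannot be told apart. In 17 libraries the genes MC5R, SSTR2, HRH2, THRSP, FBP2 and IRS1 were read together at higher levels than in the rest; these include 1 of 6 hypoxia and 4 of 6 normoxia libraries at 12 h, 1 of 6 in each group at 24 and 36 h, 2 of 6 hypoxia and 5 of 6 normoxia libraries at 48 h, and 1 of 5 at 0 h. Replicate number 1 was among the 17 in every group except normoxia at 24 h. Calls lost without those 17 libraries are given with that value. In 1 technical replicate at 0 h every one of the 590 transcripts had reads, where the next highest number was 516.

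The members moved in 4 different ways. MYH1D rose more than 3-fold from 0 to 48 h at either oxygen level, most of it by 12 h. MYH1E rose in hypoxia with no later step called, while in normoxia it rose and then fell between 12 and 24 h, and it stood 1.55-fold higher in hypoxia at 12 h and 2.24-fold to 2.54-fold higher later. MYH1F did not differ detectably between oxygen levels through 36 h and was lower in hypoxia at 48 h, at 0.552 of the normoxia level. MYH15 differed by at most 0.23 on the log2 scale between oxygen levels or between 48 and 0 h.

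**Figure D1:**
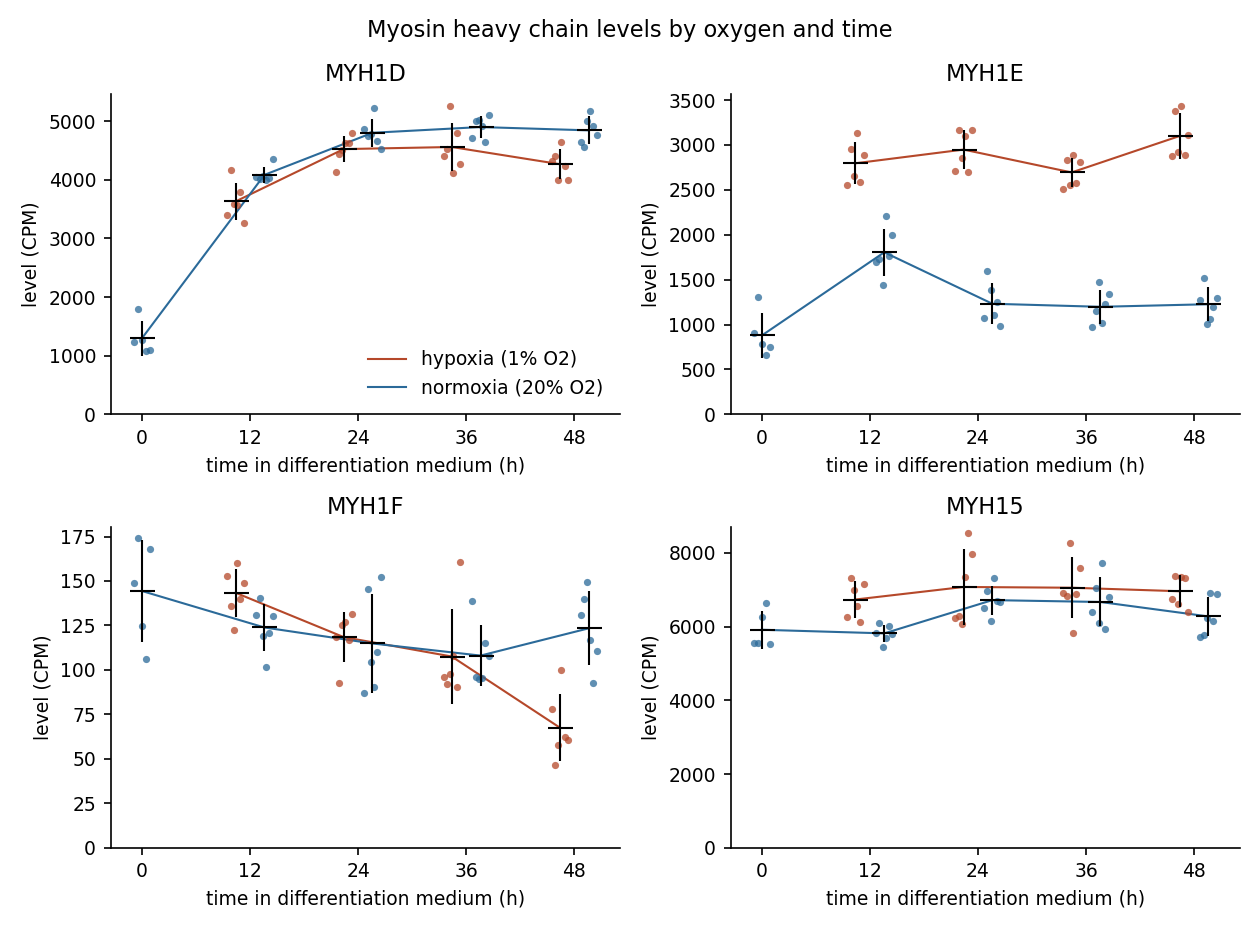
Levels (CPM, linear axes from 0) of the 4 heavy chains against time in differentiation medium. Points are libraries, horizontal ticks are group means and vertical lines are SD (n = 6, or 5 at 0 h, where the 20% O2 libraries serve both courses); hypoxia is drawn to the left of normoxia, and thin lines join the means. In the MYH1E panel every hypoxia library lies above every normoxia library of the same time.

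MYH1D, a fast skeletal heavy chain, had 1237, 1801, 1271, 1072 and 1101 CPM in the 5 libraries at 0 h. In normoxia its lowest, median and highest library stood at 3994, 4042 and 4353 CPM at 12 h, 4528, 4765 and 5232 CPM at 24 h, 4649.9, 4960.5 and 5105 CPM at 36 h, and 4552, 4841 and 5179 CPM at 48 h. All later libraries were above all 0 h libraries, and from 24 h on the groups overlapped. At 48 h MYH1D averaged 4844 ± 236 CPM in normoxia, against 1297 ± 295 CPM at 0 h (SD, n = 6 and 5), a log2 change of 1.92 (SE 0.08, edgeR quasi-likelihood test, adjusted p = 1.13e-26). No other gene of the 453 tested had a smaller p in this comparison, and the ranges failed to overlap in 31.6% of genes. MYH1D and MYH1E rose and MYH1F and MYH15 were not called, where 40.6% of all genes tested were called at an adjusted p under 0.05. The step from 0 to 12 h gave MYH1D a log2 change of 1.67 (adjusted p = 3.48e-24; 18.1% of genes called). The step from 12 to 24 h gave 0.23 (adjusted p = 0.0095; 38.6% of genes called), a call lost without replicate 1 (adjusted p = 0.0520) and without the 17 libraries (0.29, adjusted p = 0.118). It was 0.05 (adjusted p = 0.775) with scaling by 7 reference genes, which moved the median of all genes by -0.184 in that step. The later steps gave 0.03 and -0.02 on the log2 scale, neither called, where 5.74% and 1.10% of genes were.

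In hypoxia MYH1D also rose. Its lowest, median and highest library stood at 3265, 3583 and 4165 CPM at 12 h, 4131, 4566 and 4799 CPM at 24 h, 4118, 4462 and 5260.0 CPM at 36 h, and 3991, 4275 and 4652 CPM at 48 h. At each harvest these ranges overlapped those of normoxia. In hypoxia MYH1D rose to 3632 ± 317 CPM at 12 h, against 1297 ± 295 CPM at 0 h (SD, n = 6 and 5; adjusted p = 1.69e-22). The step from 12 to 24 h in hypoxia was 0.32 on the log2 scale (adjusted p = 0.00116), not called with reference genes (0.31, adjusted p = 0.0732), and neither later step was called. The level at 48 h in hypoxia was 1.73 above that at 0 h on the log2 scale (SE 0.08, adjusted p = 4.33e-25; 44.2% of genes called), a comparison that shares its 0 h libraries with that in normoxia. Hypoxia against normoxia gave log2 differences of -0.17 (SE 0.07, adjusted p = 0.0774) at 12 h, -0.09 (adjusted p = 0.482) at 24 h and -0.10 (adjusted p = 0.399) at 36 h, with 17.9%, 18.5% and 16.3% of all genes called (10.4%, 8.61% and 10.2% lower). At 48 h the means were 4267 ± 253 CPM in hypoxia and 4844 ± 236 CPM in normoxia (SD, n = 6 each), a log2 difference of -0.18 (SE 0.07, adjusted p = 0.0491; 22.3% of genes called, 9.27% lower), with 6 of 6 hypoxia libraries below the normoxia mean. That call did not hold without replicates 3, 4 or 6 (adjusted p up to 0.220), nor without the 17 libraries (-0.19, adjusted p = 0.710), where 1 normoxia library was left at 48 h. The size of the oxygen difference did not pass a test for a change between harvests (adjusted p = 0.802).

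MYH1E, a fast skeletal heavy chain of the same cluster, was higher in hypoxia at all 4 harvests. The 0 h libraries had 902, 1302, 784, 657 and 746 CPM. At 12 h the lowest, median and highest library had 2553, 2775 and 3131 CPM in hypoxia, against 1444, 1743 and 2204 CPM in normoxia. At 24 h the values were 2697, 2977 and 3168 CPM in hypoxia and 981, 1176 and 1597 CPM in normoxia. The 2 oxygen levels did not overlap at any of these harvests or later. At 36 h they were 2512, 2694 and 2884 CPM in hypoxia and 969.6, 1189.8 and 1472 CPM in normoxia. At 48 h they were 2879, 3012 and 3433 CPM in hypoxia and 1006, 1237 and 1524 CPM in normoxia. Over all genes tested the ranges of the 2 groups failed to overlap in 13.9%, 7.28%, 6.40% and 15.5% of genes at 12, 24, 36 and 48 h.

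The log2 difference of MYH1E between hypoxia and normoxia was 0.63 (SE 0.12, adjusted p = 6.18e-05) at 12 h, where the means were 2796 ± 232 CPM in hypoxia and 1805 ± 264 CPM in normoxia (SD, n = 6 each). It was 1.26 (SE 0.12, adjusted p = 2.24e-12) at 24 h and 1.16 (SE 0.12, adjusted p = 3.90e-11) at 36 h. At 48 h it was 1.34 (SE 0.12, adjusted p = 3.60e-13), with means of 3100.1 ± 251 CPM in hypoxia and 1226 ± 186 CPM in normoxia. At the 4 harvests 7.51%, 9.93%, 6.18% and 13.0% of all genes were called higher in hypoxia. Ranked by p among the 453 genes, MYH1E had rank 12 at 12 h, 6 at 24 h and 4 at 36 h and at 48 h. The call at 12 h was lost without the 17 libraries (0.51, adjusted p = 0.0855), which left 5 hypoxia and 2 normoxia libraries, and with scaling by reference genes (0.50, adjusted p = 0.0734), which moved the median of all genes by -0.125. Without the 17 libraries the difference was 1.23 at 24 h (adjusted p = 3.07e-09), 1.13 at 36 h (adjusted p = 3.43e-08) and 1.23 at 48 h (adjusted p = 0.00187), the last against 1 normoxia library. The difference was larger at 48 h than at 12 h by 0.71 (SE 0.16, adjusted p = 0.00242; 9.27% of genes called), and the test over the 4 harvests gave an adjusted p of 0.0058 (10.6% of genes called). Without the 17 libraries these were 0.72 (adjusted p = 0.400) and an adjusted p of 0.182.

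**Figure D2:**
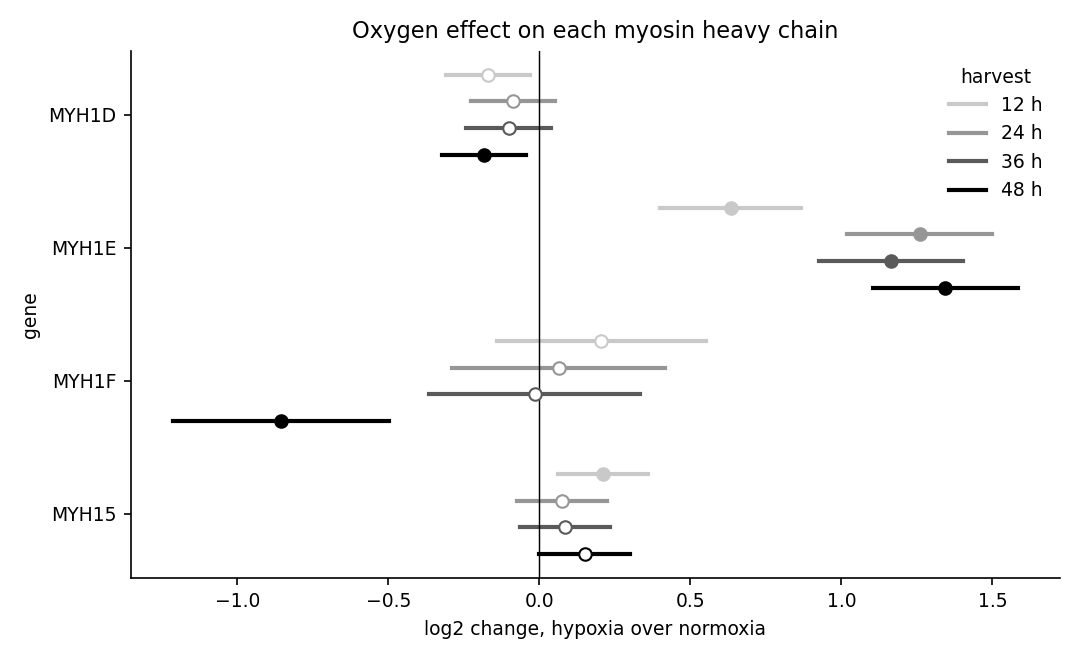
Difference in level between hypoxia and normoxia for each heavy chain at 12, 24, 36 and 48 h (log2, all 53 libraries in the fit). Points are estimates, filled where the adjusted p was under 0.05, and lines are 95% intervals. MYH1E lies at 0.63 to 1.34, MYH1F leaves 0 at 48 h (-0.86), MYH1D lies between -0.18 and -0.09, and MYH15 between 0.07 and 0.21.

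The time courses of MYH1E parted in the first 24 h. From 0 to 12 h it rose in hypoxia by 1.68 on the log2 scale (SE 0.13, adjusted p = 1.15e-15, 27.2% of genes called). In normoxia it rose by 1.05 (SE 0.13, adjusted p = 1.83e-09, 18.1% of genes called). From 12 to 24 h it fell by 0.55 in normoxia (SE 0.12, adjusted p = 0.000717), a step in which 38.6% of genes were called. In hypoxia the step of 0.08 was not called (adjusted p = 0.757, 10.2% of genes called). With reference gene scaling the change in normoxia was -0.74, beside the shift of -0.184 in the median of all genes. No step after 24 h was called for MYH1E. The values were -0.03 and 0.02 in normoxia (5.74% and 1.10% of genes called) and -0.13 and 0.20 in hypoxia (9.05% and 3.97%). At 48 h the level was 1.83 above 0 h in hypoxia (SE 0.13, adjusted p = 2.14e-17), 3.56-fold, and 0.49 above 0 h in normoxia (SE 0.12, adjusted p = 0.00119), 1.40-fold. In normoxia the 48 h libraries overlapped those at 0 h, and the call was lost without the 17 libraries (0.64, adjusted p = 0.0595) and with reference genes (0.46, adjusted p = 0.0615). Ordered by mean, the 4 hypoxia groups of MYH1E stood above all normoxia groups and overlapped their neighbours among themselves. Normoxia at 12 h came next, without overlap with the hypoxia group above it, and normoxia at 24, 48 and 36 h and 0 h followed, each overlapping the next.

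MYH1F, the fast heavy chain next to MYH1D, was read at low counts. The 0 h libraries had 149, 174, 125, 106 and 168 CPM. Means were 143 ± 13.6 CPM in hypoxia and 124 ± 13.3 CPM in normoxia at 12 h, 118 ± 13.9 CPM in hypoxia and 115 ± 27.7 CPM in normoxia at 24 h, and 108 ± 26.9 CPM in hypoxia and 108 ± 17.1 CPM in normoxia at 36 h (SD, n = 6 each). Up to 36 h the log2 difference between hypoxia and normoxia was at most 0.21 and was not called; without the 17 libraries it was 0.32, 0.16 and 0.10 at 12, 24 and 36 h, not called either. At 48 h the lowest, median and highest library had 46.7, 61.4 and 100.2 CPM in hypoxia, against 92.6, 124 and 149.6 CPM in normoxia. The ranges overlapped through 1 hypoxia library, at 100.2 CPM, and these libraries held 11 to 56 counts of MYH1F in hypoxia and 23 to 184 in normoxia. The log2 difference was -0.86 (SE 0.18, adjusted p = 0.000147). Without the 17 libraries it was -0.76 (adjusted p = 0.416), with 4 hypoxia libraries and 1 normoxia library left. In hypoxia MYH1F fell by 0.65 from 36 to 48 h (SE 0.18, adjusted p = 0.0190), a call lost on leaving out any replicate other than number 4 (adjusted p up to 0.188) and without the 17 libraries (-0.72, adjusted p = 0.113). In the whole course the level in hypoxia at 48 h was below that at 0 h by a log2 change of -1.08 (SE 0.18, adjusted p = 2.29e-06), without overlap (30.9% of genes), while in normoxia the change was -0.22 (SE 0.18, adjusted p = 0.348). The difference between oxygen levels changed with time (adjusted p = 0.0058), by -1.06 between 12 and 48 h (SE 0.25, adjusted p = 0.00242). Without the 17 libraries these tests gave adjusted p = 0.688 and 0.532.

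MYH15, the ventricular heavy chain, was read from 0 h on. The 0 h libraries had 5567, 5555, 6271, 6636 and 5534 CPM, and group means of the later harvests ran from 5814 ± 234 CPM in normoxia at 12 h to 7072 ± 1037 CPM in hypoxia at 24 h. At 12 h the lowest, median and highest library had 6131, 6778 and 7302 CPM in hypoxia, against 5444, 5811 and 6099 CPM in normoxia, with no overlap. The log2 difference of 0.21 (SE 0.07, adjusted p = 0.0384) lost its call with any 1 of the 6 replicates left out (adjusted p from 0.0504 to 0.146), under DESeq2 (0.18, adjusted p = 0.109) and without the 17 libraries (0.21, adjusted p = 0.405). It was 0.08 with reference gene scaling. At 24, 36 and 48 h the differences were 0.07, 0.09 and 0.15, not called, and that at 48 h was 0.0090 without the 17 libraries. From 0 to 48 h MYH15 changed by 0.23 in hypoxia (SE 0.08, adjusted p = 0.0119) and by 0.08 in normoxia (SE 0.08, adjusted p = 0.419), where it was 0.24 without the 17 libraries (adjusted p = 0.394). The change in hypoxia was not called without replicates 1, 2 or 5 or without the 17 libraries (0.25, adjusted p = 0.0665). The step from 12 to 24 h in normoxia, 0.21 (adjusted p = 0.0265), became 0.02 with reference genes and was not called without the 17 libraries (0.21, adjusted p = 0.241). The difference between oxygen levels did not pass the test for a change with time (adjusted p = 0.697). At each harvest the 95% interval of its difference between oxygen levels lay within -0.08 and 0.36.

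Over the whole course, a test for any change among the 5 harvests called MYH1D (adjusted p = 2.28e-26), MYH1E (adjusted p = 1.51e-08) and MYH15 (adjusted p = 0.0386) in normoxia, and not MYH1F (adjusted p = 0.264), where 59.8% of genes were called. In hypoxia, with the shared 0 h libraries, it called MYH1D (adjusted p = 1.08e-25), MYH1E (adjusted p = 1.56e-16), MYH1F (adjusted p = 6.72e-06) and MYH15 (adjusted p = 0.0254), where 51.0% were called. The calls of MYH15 were lost in either course without the 17 libraries (adjusted p = 0.324 in normoxia and 0.114 in hypoxia).

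Since members are read in the same library, the ratio of their reads does not depend on the scaling between libraries. It was taken as reads per read of MYH1D with 0.5 added to each count. Its log2 was tested with an exact two-sided permutation test, adjusted over the 18 ratio tests, of which 14 were called. All 18 divide by the same MYH1D counts, so they are not independent. Ratios of other genes to MYH1D were not tested, so the number called has no background share and is not read as particular to the members. With 6 libraries in each group the smallest p possible was 0.00216. Replicate numbers were not taken as pairs in this test. At 12 h the library totals ranked alike by number at either oxygen level. Number 4 was lowest (232043 counts in hypoxia and 296563 in normoxia) and number 5 highest (1252578 and 1448544). Same-numbered libraries may therefore be linked, which the test does not take into account. MYH1E gave 0.672 ± 0.056 reads per MYH1D read at 0 h (SD, n = 5). At 12 h it gave 0.774 ± 0.086 in hypoxia and 0.442 ± 0.064 in normoxia, at 24 h 0.652 ± 0.042 in hypoxia and 0.257 ± 0.051 in normoxia, at 36 h 0.596 ± 0.080 in hypoxia and 0.244 ± 0.035 in normoxia, and at 48 h 0.727 ± 0.045 in hypoxia and 0.255 ± 0.050 in normoxia (SD, n = 6 each). The ratio was higher in hypoxia by 1.76-fold, 2.57-fold, 2.44-fold and 2.89-fold at the 4 harvests, without overlap, each at the smallest p possible (exact permutation p = 0.00216, adjusted p = 0.00354). At 48 h against 0 h it was lower in normoxia, by a log2 change of -1.42 (exact permutation, adjusted p = 0.00354), and in hypoxia it differed by 0.11 (exact permutation, adjusted p = 0.114), the ranges of 0.667 to 0.778 at 48 h and 0.613 to 0.729 at 0 h overlapping. In normoxia the level of MYH1E itself was higher by 0.49 and that of MYH1D by 1.92. With the 17 libraries left out the MYH1E differences were 0.66, 1.31, 1.25 and 1.42 on the log2 scale at 12, 24, 36 and 48 h (exact permutation, adjusted p = 0.163, 0.0714, 0.0714 and 0.225), and the change from 0 to 48 h in normoxia was -1.27 (exact permutation, adjusted p = 0.225). None of the 18 ratio tests was then called by exact permutation, 5 having an unadjusted p under 0.05. At 24 and 36 h 5 libraries were left in each group. There the MYH1E ratio still did not overlap between oxygen levels and was at the smallest p possible (exact permutation p = 0.00794). No wider separation could have lowered that p. With 5 hypoxia and 2 normoxia libraries left at 12 h, no ratio there could be called over the 18 tests. Nor could one for hypoxia at 48 h against 0 h, with 4 libraries left in each group. With 1 normoxia library left at 48 h the smallest p possible there was 0.2, so no ratio could be called.

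The MYH1F and MYH15 ratios were lower at 48 h than at 0 h at either oxygen level, by log2 changes of -2.84 and -1.51 in hypoxia and -2.14 and -1.84 in normoxia (exact permutation, adjusted p = 0.00354 each). The level of MYH1D, by which these ratios divide, rose by 1.73 in hypoxia and 1.92 in normoxia. That of MYH15 changed by 0.23 and 0.08, and that of MYH1F by -1.08 and -0.22. MYH1F reads per MYH1D read averaged 0.0160 ± 0.0036 in hypoxia and 0.0258 ± 0.0048 in normoxia at 48 h, and 0.114 ± 0.024 at 0 h (SD, n = 6, 6 and 5). The difference at 48 h was 0.617-fold (exact permutation, adjusted p = 0.00649) and that at 12 h went the other way, 1.31-fold (exact permutation, adjusted p = 0.0120). Neither call held in technical replicate 2 alone (log2 -0.52 and 0.22; exact permutation, adjusted p = 0.0617 and 0.177), nor without the 17 libraries (log2 -0.65 and 0.47; exact permutation, adjusted p = 0.424 and 0.171). MYH15 reads per MYH1D read averaged 1.63 ± 0.06 in hypoxia and 1.29 ± 0.08 in normoxia at 48 h, and 4.74 ± 1.12 at 0 h (SD, n = 6, 6 and 5). That ratio was higher in hypoxia by 1.30-fold at 12 h, 1.14-fold at 36 h and 1.26-fold at 48 h (exact permutation, adjusted p = 0.00354, 0.0278 and 0.00354), and at 24 h it was 1.11-fold (exact permutation, adjusted p = 0.0805). The call at 36 h was lost on leaving out any replicate other than number 4. Without the 17 libraries the MYH15 differences at 12, 36 and 48 h were 0.35, 0.18 and 0.20 on the log2 scale (exact permutation, adjusted p = 0.171, 0.163 and 0.225). The changes from 0 to 48 h were then -2.86 for MYH1F and -1.49 for MYH15 in hypoxia (exact permutation, adjusted p = 0.129 each). In normoxia they were -2.21 and -1.69. With so few libraries left none of these changes could have been called, so the missing calls do not count against them.

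**Figure D3:**
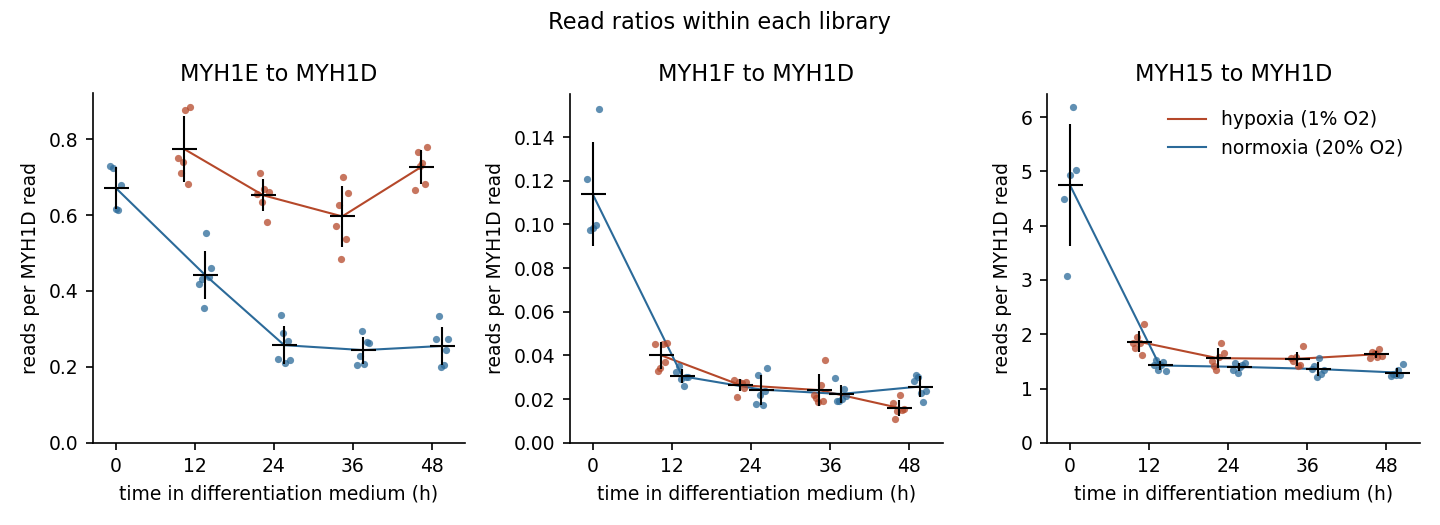
Reads of MYH1E, MYH1F and MYH15 per read of MYH1D in each library against time (linear axes from 0). Points are libraries, horizontal ticks are means and vertical lines SD (n = 6, or 5 at 0 h). The MYH1E ratio stays at 0.596 to 0.774 on average in hypoxia and drops to 0.244 to 0.257 in normoxia from 24 h, and the MYH15 and MYH1F ratios drop from 0 to 12 h at both oxygen levels.

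MYH1B, the remaining fast heavy chain of the panel, was lower at 12 h than at 0 h and rose later. From 0 to 12 h its log2 change was -0.71 in normoxia (SE 0.18, adjusted p = 0.00202, without overlap) and -0.47 in hypoxia (SE 0.18, adjusted p = 0.0419). The call in hypoxia was lost without replicates 1, 2, 3 or 6. In these steps 18.1% of genes were called in normoxia and 27.2% in hypoxia. Values of these steps without the 17 libraries are not given here. Its means were 154 ± 30.9 CPM at 0 h, 93.7 ± 8.91 CPM at 12 h, 174 ± 41.0 CPM at 24 h, 229 ± 27.5 CPM at 36 h and 325 ± 64.7 CPM at 48 h in normoxia (SD, n = 5 at 0 h and 6 later). In hypoxia they were 111 ± 26.5, 149.5 ± 16.3, 322 ± 68.3 and 364 ± 40.3 CPM at 12, 24, 36 and 48 h. At 48 h it stood above 0 h by 1.24 on the log2 scale in hypoxia (SE 0.18, adjusted p = 1.03e-07) and by 1.08 in normoxia (SE 0.18, adjusted p = 1.67e-06), without overlap in either. Between oxygen levels it was called at 36 h (0.49, SE 0.17, adjusted p = 0.0373), a call lost without replicates 1, 2, 4 or 5 and without the 17 libraries (0.45, adjusted p = 0.158). Its differences at 12, 24 and 48 h were 0.24, -0.23 and 0.16, not called, and that at 48 h was -0.24 without the 17 libraries (adjusted p = 0.809). Of the 5 heavy chains in the panel, MYH1E was the member called between oxygen levels at all 4 harvests.

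Technical and biological spread set how finely each member could be read. The SD of log2 CPM was 0.114 between technical replicates and 0.122 between libraries of a group for MYH1D, 0.192 and 0.206 for MYH1E, 0.345 and 0.263 for MYH1F, and 0.116 and 0.130 for MYH15, beside medians of 0.243 and 0.242 over all genes tested. Technical values are of single replicates and library values of their sums. The spread of MYH1D and MYH15 lay under those medians and that of MYH1F above them.

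The genes whose 9 group means were most like those of each member were named by the correlation of mean log2 CPM, as a description over groups that share libraries with the member. For MYH1D they were APOA1 (r = 0.987), an apolipoprotein of high density lipoprotein, the matrix protein SPON1 (0.980) and the death receptor FAS (0.963). For MYH1E they were the Ensembl gene ENSGALG00000041298 (0.975), IGFBP2 (0.972), a binding protein of insulin-like growth factors, and the matrix protein COCH (0.952). For MYH1F they were ENSGALG00000004908 (0.779), the satellite cell factor PAX7 (0.750) and the glypican GPC3 (0.728). For MYH15 they were the glycolytic enzyme ENO1 (0.961), CTNNB1 (0.942), which encodes beta-catenin, and the collagen COL5A1 (0.936). Within groups, over the deviations of 53 libraries, MYH1D correlated at 0.652 with APOA1, 0.106 with SPON1 and 0.316 with FAS. MYH1E correlated at 0.290 with ENSGALG00000041298, its first match, 0.620 with IGFBP2 and 0.653 with COCH. The 3 genes named with MYH15 had 0.631, 0.606 and 0.846, and the 3 named with MYH1F lay between -0.105 and 0.181. Between members the correlation of group means was 0.431 for MYH1D with MYH1E and -0.407 for MYH1D with MYH1F, which lie side by side. MYH15 had 0.657 with MYH1E, 0.545 with MYH1D and -0.503 with MYH1F, and MYH1E had -0.414 with MYH1F.

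Other genes of the contractile apparatus give a background to these courses. Of 71 named, 12 were in the panel beside the heavy chains and 11 were tested. Between hypoxia and normoxia 1 was called higher and 1 lower at 12 h, 2 higher and 1 lower at 24 h, 2 higher and 1 lower at 36 h and 3 higher at 48 h, with medians of 0.20, 0.06, 0.11 and 0.08 on the log2 scale, beside 0.04, 0.01, 0.00 and 0.01 over all genes. Of all 453 genes 7.51% were called higher and 10.4% lower at 12 h, 9.93% and 8.61% at 24 h, 6.18% and 10.2% at 36 h, and 13.0% and 9.27% at 48 h. At 36 h 1 of the 3 calls was left on leaving out any replicate other than number 4, and at 48 h 1 of 3 without replicate 6. PVALB, the calcium buffer parvalbumin, was higher in hypoxia at each harvest (log2 1.32, 1.59, 1.14 and 1.28; adjusted p = 9.31e-05, 2.19e-06, 0.000432 and 4.97e-05), as MYH1E was. With those 17 libraries left out PVALB was not called at 12 h (1.11, adjusted p = 0.112) or 48 h (0.85, adjusted p = 0.539). CAPN3, the muscle calpain, was higher at 24 and 48 h (log2 1.38 and 0.97; adjusted p = 0.000849 and 0.0167), and at 48 h not without the 17 libraries (adjusted p = 0.510) or without replicate 6 (adjusted p = 0.0718). MYLK, the myosin light chain kinase, was lower in hypoxia at 12, 24 and 36 h (log2 -1.67, -1.32 and -0.90; adjusted p = 6.19e-05, 0.000851 and 0.0327), the last not without the 17 libraries (adjusted p = 0.0681) or any replicate other than number 4 (adjusted p up to 0.255). The smooth muscle actin ACTA2 at 36 h (0.22, adjusted p = 0.0358) and the non-muscle actinin ACTN4 at 48 h (1.32, adjusted p = 0.0462) were called and lost the call without the 17 libraries (adjusted p = 0.161 and 0.680). ACTA2 also lost it without any replicate other than number 4 (adjusted p up to 0.288) and ACTN4 without replicates 1, 3, 4 or 6 (adjusted p up to 0.334). The skeletal actin ACTA1 had differences of 0.01 to 0.16 and the intermediate filament gene DES of 0.02 to 0.11, none called in the main fit. Without replicate 4 ACTA1 was called at 36 h (0.23, adjusted p = 0.00782). At 12 h ACTA1 was called in technical replicate 2 alone (0.23, adjusted p = 0.0476) and in a fit of the compared groups alone (0.16, adjusted p = 0.00893).

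From 0 to 48 h 5 of the 11 were called higher in hypoxia, and 5 higher and 1 lower in normoxia. The medians were 1.29 in hypoxia and 0.13 in normoxia beside 0.01 over all genes in either. With 11 genes each median is the value of 1 gene, here 1 that was not called. The gap between the medians is therefore not read as a shift of the list. Of all 453 genes 19.0% were called higher and 25.2% lower in hypoxia, and 15.5% higher and 25.2% lower in normoxia. With single replicate numbers left out the median ranged from 0.82 to 1.42 in hypoxia and from 0.12 to 0.50 in normoxia, the normoxia median being 0.50, 0.44 and 0.40 without replicates 1, 3 and 5. The Z-disc gene LDB3 rose with MYH1D, to 3437 ± 302 CPM in hypoxia and 3829 ± 269 CPM in normoxia at 48 h, against 805 ± 172 CPM at 0 h (SD, n = 6, 6 and 5), and was not called between oxygen levels at any harvest (log2 -0.23 to -0.07), except at 12 h without replicate 1 (-0.41, adjusted p = 0.0123). In hypoxia CAPN3 (2.35), LDB3 (2.10), MYLK (1.99), PVALB (1.97) and ACTC1 (1.74) rose. In normoxia MYLK (2.52), LDB3 (2.26), CAPN3 (1.38), the cardiac actin ACTC1 (1.18) and PVALB (0.69) rose and ACTN4 (-1.25) fell. The normoxia calls of CAPN3, PVALB and ACTN4 were lost without the 17 libraries (adjusted p = 0.290, 0.216 and 0.546). PVALB in normoxia was also not called without replicates 3, 4, 5 or 6 (adjusted p up to 0.0985) or with reference genes (adjusted p = 0.118). ACTN4 in normoxia was not called without replicates 1, 3, 4 or 6, at -0.70 without replicate 3 (adjusted p = 0.363), nor under DESeq2 (-1.27, adjusted p = 0.0559).

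**Figure D4:**
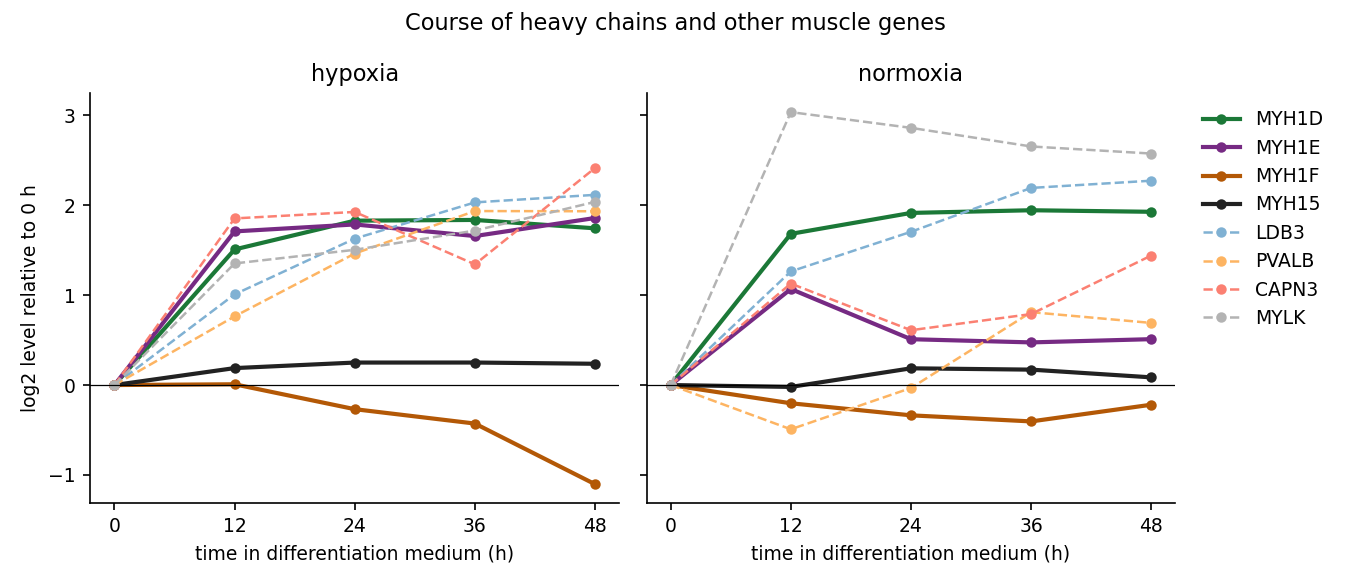
Mean log2 level relative to 0 h of the 4 heavy chains (solid) and of LDB3, PVALB, CAPN3 and MYLK (dashed), which were picked for display after their values were seen, in hypoxia (left) and normoxia (right). Each point is a group mean (n = 6, or 5 at 0 h). MYH1E lies beside MYH1D in hypoxia and well under it in normoxia from 24 h, and LDB3 reaches a change above 2 at 48 h in both.

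The myogenic transcription factors switch muscle genes on. Of 18 myogenic factors named 10 were in the panel and 9 tested. Between hypoxia and normoxia 2 were called lower at 12 h, 2 higher at 24 h, 1 higher at 36 h and 1 higher at 48 h, with medians of 0.05, 0.12, 0.13 and 0.00 on the log2 scale, beside 0.04, 0.01, 0.00 and 0.01 over all genes. Over all genes 17.9%, 18.5%, 16.3% and 22.3% were called, and counts of 1 or 2 of 9 are not read as a result about these factors. MYOD1 and MYOG, which start and carry differentiation, had log2 differences of -0.02 to 0.14 and 0.04 to 0.15 over the 4 harvests, none called; MYOG at 36 h was called with reference genes (0.15, adjusted p = 0.0108). MYF5 had 0.35 to 0.46, none called in the main fit. In a fit of the compared groups alone MYF5 was called at 12 h (0.37, adjusted p = 0.0401). With replicate number as a block it was called at 24 h (0.49, adjusted p = 0.0459), and in technical replicate 1 alone at 36 h (0.62, adjusted p = 0.0280). MEF2A and MEF2C, partners of these factors at muscle promoters, were lower in hypoxia at 12 h (-0.75 and -0.76; adjusted p = 0.0470 and 0.0384), calls lost without the 17 libraries (adjusted p = 0.114 and 0.248). MEF2A also lost its call without any 1 replicate (adjusted p up to 0.146) and MEF2C without replicates 1, 2, 4 or 6 (adjusted p up to 0.143). MEF2D had -0.53 to 0.05, not called. MYF6 was higher at 24 h (2.02, SE 0.68, adjusted p = 0.0303) and lost the call without the 17 libraries (adjusted p = 0.103) and without replicates 1, 2 or 5 (adjusted p up to 0.112). PAX3 was higher in hypoxia at 24, 36 and 48 h (1.12, 0.86 and 0.92; adjusted p = 0.000231, 0.00621 and 0.00207), the last not called without the 17 libraries (adjusted p = 0.653). At 36 h PAX3 was 0.52 without replicate 4 (adjusted p = 0.114), and the call was also lost in technical replicate 1 alone (0.65, adjusted p = 0.135) and in a fit of the compared groups alone (adjusted p = 0.0947). From 0 to 48 h in hypoxia MEF2C rose (0.74), a call lost without the 17 libraries (adjusted p = 0.173), with reference genes (0.100), with technical replicate 2 alone (0.277) and without replicate 1, 2, 4 or 6 (0.0505 to 0.112), and PAX3 fell (-0.92). MYF5 was not called there in the main fit, but was called lower under DESeq2 (-0.50, adjusted p = 0.0393) and with library totals (-0.50, adjusted p = 0.0413). It was also called lower with reference genes (-0.58, adjusted p = 0.0173) and with replicate number as a block (-0.49, adjusted p = 0.0256). A fit of the compared groups alone called it as well (-0.45, adjusted p = 0.0187). With reference genes MYOD1 was called lower from 0 to 48 h in hypoxia (-0.15, adjusted p = 0.000987) and in normoxia (-0.10, adjusted p = 0.0244). PAX7 was called lower in hypoxia with that scaling (-0.30, adjusted p = 0.0164). Neither was called there in the main fit. The scaling moved the median of all genes by -0.056 in hypoxia and -0.033 in normoxia. In normoxia MEF2C rose (1.08) and PAX3 (-1.84) and MYF5 (-0.85) fell, the calls of MEF2C and MYF5 being lost without the 17 libraries (adjusted p = 0.269 and 0.169).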

How the data were processed

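Targeted RNA-seq was done on cDNA of 53 biological libraries in 2 technical replicates each, with primers that cross exon boundaries, per the labels' protocols. The authors deposited raw read counts for 590 transcripts in 106 samples. Per the submitters' processing notes the build was galGal6; aligner, counter and use of strand: not given in the sources used here. In 21 columns 1160 cells were blank and read as 0, none of them in a heavy chain row. Transcripts of a gene and technical replicates were summed, giving 569 genes, of which 453 passed filterByExpr.

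edgeR 4.0.16 under R 4.3.3 tested the counts by quasi-likelihood (glmQLFit and glmQLFTest; TMM, all 9 groups, no block, 44 residual degrees of freedom, common coefficient of variation 26.0%), adjusted by Benjamini-Hochberg over the 453 genes of each contrast and called at 0.05. SE is the log2 change over the square root of F, and intervals use 44 degrees of freedom. Every adjusted p of a gene is edgeR's unless DESeq2 1.42.0 is named. Ratios were tested by exact permutation in Python 3.11.15. The edgeR test of hypoxia against normoxia at 48 h was tried on simulated counts. The other contrasts and the permutation test were not. No unique molecular identifier is mentioned, so a read is not 1 molecule.

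The members, lists and tests were chosen with earlier results of these data known. Named genes are the members, for each the 3 genes with the most alike group means (log2 of CPM + 1), the called contractile genes with the 3 highest and 3 lowest changes, MYOD1, MYOG, MYF5, MYF6 and the MEF2 genes tested, and the other myosin of the panel. ACTA1, DES, PAX3 and LDB3 between oxygen levels were named after their values were seen. Alternatives were DESeq2, library totals, 7 reference genes (ACTB, GAPDH, HPRT1, TBP, YWHAZ, PPIA, GUSB), no filter, each technical replicate alone, a replicate block, a fit of the compared groups alone, each replicate left out, a pseudocount of 1 for ratios and, chosen after seeing the data, leaving out 17 libraries above the widest gap in the mean level of 6 genes. Some genes are not reported here.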

Additional observations from a re-analysis of the deposited data

Results flagged for a closer look

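In 3 of 63 groups of library values 1 library stood apart from the rest by Dixon's criterion, where chance gives about 1 in 20. MYH1D in normoxia at 0 h was 1801 CPM in replicate 2, with the next library at 1271 CPM. MYH1D in normoxia at 12 h was 4353 CPM in replicate 6, with the next at 4068 CPM. MYH1F in hypoxia at 36 h was 161 CPM in replicate 6, with the next at 108 CPM. The difference between hypoxia and normoxia changed with the harvest for MYH1E and for MYH1F (edgeR, adjusted p = 0.0058 for each), upward for MYH1E and downward for MYH1F.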

How the results depend on the processing

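No result changed its sign while called. Over the 15 alternatives MYH1E kept its call at 24, 36 and 48 h, with log2 differences of 1.19 to 1.32, 1.07 to 1.25 and 1.16 to 1.48, and so did MYH1D from 0 to 48 h at either oxygen level, and MYH1E and MYH1F from 0 to 48 h in hypoxia. MYH1F at 48 h kept its call in 14 of 15. The cause of each change named here was not tested. Leaving out the 17 libraries left 2 normoxia libraries at 12 h and 1 at 48 h, so fewer samples bear those values. With DESeq2 the call was gained for MYH1D at 12 h (-0.21, adjusted p = 0.0254), and lost for MYH15 at 12 h (0.18, adjusted p = 0.109), MYH15 normoxia step to 24 h (0.19, adjusted p = 0.0535) and MYH15, any change in normoxia (adjusted p = 0.0805). With library totals the call was gained for MYH1D at 12 h (-0.21, adjusted p = 0.0279) and MYH15 hypoxia step to 12 h (0.19, adjusted p = 0.0382), and lost for MYH15 at 12 h (0.17, adjusted p = 0.0749). In fits of the compared groups alone the call was gained for MYH1D at 12 h (-0.17, adjusted p = 0.024), and lost for MYH1F hypoxia step to 48 h (-0.67, adjusted p = 0.276), MYH15, any change in hypoxia (adjusted p = 0.105) and MYH1B at 36 h (0.49, adjusted p = 0.216). Values that moved there: the contractile median 48 against 0 h in normoxia (0.42) and the contractile median 48 against 0 h in hypoxia (0.99). With reference gene scaling the call was lost for MYH1D at 48 h (-0.21, adjusted p = 0.225), MYH1D normoxia step to 24 h (0.0455, adjusted p = 0.775), MYH1D hypoxia step to 24 h (0.31, adjusted p = 0.0732), MYH1E at 12 h (0.50, adjusted p = 0.0734), MYH1E 48 against 0 h in normoxia (0.46, adjusted p = 0.0615), MYH1E over harvests (adjusted p = 0.0996), MYH1E 48 minus 12 h (0.80, adjusted p = 0.0588), MYH1F hypoxia step to 48 h (-0.62, adjusted p = 0.0939), MYH15 at 12 h (0.0846, adjusted p = 0.557), MYH15 48 against 0 h in hypoxia (0.19, adjusted p = 0.0785), MYH15 normoxia step to 24 h (0.0229, adjusted p = 0.86), MYH15, any change in normoxia (adjusted p = 0.908), MYH15, any change in hypoxia (adjusted p = 0.269) and MYH1B at 36 h (0.53, adjusted p = 0.0932). In technical replicate 1 alone the call was lost for MYH1D at 48 h (-0.18, adjusted p = 0.101), MYH1F hypoxia step to 48 h (-0.64, adjusted p = 0.157), MYH15 at 12 h (0.18, adjusted p = 0.201), MYH1B at 36 h (0.38, adjusted p = 0.283) and the ratio of MYH1F to MYH1D at 12 h (0.48, adjusted p = 0.0623). Values that moved there: the contractile median 48 against 0 h in normoxia (0.43). In technical replicate 2 alone the call was lost for MYH1D at 48 h (-0.23, adjusted p = 0.0549), MYH1E over harvests (adjusted p = 0.152), MYH1E 48 minus 12 h (0.55, adjusted p = 0.125), MYH1F hypoxia step to 48 h (-0.67, adjusted p = 0.244), MYH1F over harvests (adjusted p = 0.169), MYH1F 48 minus 12 h (-0.87, adjusted p = 0.0943), MYH15 at 12 h (0.23, adjusted p = 0.0752), MYH15 48 against 0 h in hypoxia (0.21, adjusted p = 0.074), MYH15 normoxia step to 24 h (0.16, adjusted p = 0.176), MYH15, any change in normoxia (adjusted p = 0.359), MYH15, any change in hypoxia (adjusted p = 0.217), MYH1B at 36 h (0.57, adjusted p = 0.114), the ratio of MYH1F to MYH1D at 12 h (0.22, adjusted p = 0.177), the ratio of MYH1F to MYH1D at 48 h (-0.52, adjusted p = 0.0617) and the ratio of MYH15 to MYH1D at 36 h (0.15, adjusted p = 0.139). Values that moved there: the contractile median 48 against 0 h in normoxia (0.74). On leaving out the 17 libraries the call was lost for MYH1D at 48 h (-0.19, adjusted p = 0.71), MYH1D normoxia step to 24 h (0.29, adjusted p = 0.118), MYH1E at 12 h (0.51, adjusted p = 0.0855), MYH1E 48 against 0 h in normoxia (0.64, adjusted p = 0.0595), MYH1E over harvests (adjusted p = 0.182), MYH1E 48 minus 12 h (0.72, adjusted p = 0.4), MYH1F at 48 h (-0.76, adjusted p = 0.416), MYH1F hypoxia step to 48 h (-0.72, adjusted p = 0.113), MYH1F over harvests (adjusted p = 0.688), MYH1F 48 minus 12 h (-1.07, adjusted p = 0.532), MYH15 at 12 h (0.21, adjusted p = 0.405), MYH15 48 against 0 h in hypoxia (0.25, adjusted p = 0.0665), MYH15 normoxia step to 24 h (0.21, adjusted p = 0.241), MYH15, any change in normoxia (adjusted p = 0.324), MYH15, any change in hypoxia (adjusted p = 0.114), MYH1B at 36 h (0.45, adjusted p = 0.158), the ratio of MYH1E to MYH1D at 24 h (1.31, adjusted p = 0.0714), the ratio of MYH1E to MYH1D at 36 h (1.25, adjusted p = 0.0714) and the ratio of MYH15 to MYH1D at 36 h (0.18, adjusted p = 0.163). There all 14 ratio calls were lost and the ratio of MYH15 to MYH1D at 48 h moved (0.20). Without the filter the call was lost for MYH15 at 12 h (0.19, adjusted p = 0.103) and MYH15, any change in normoxia (adjusted p = 0.0723). With the replicate block the call was lost for MYH1B at 36 h (0.48, adjusted p = 0.0537). With each replicate number left out in turn, the lowest and highest values (adjusted p for tests over several harvests) and the numbers concerned were those of MYH1D at 12 h (-0.23 to -0.12, gained without 2 and 5), MYH1D at 48 h (-0.23 to -0.15, lost without 3, 4 and 6), MYH1D normoxia step to 24 h (0.20 to 0.27, lost without 1), MYH1F hypoxia step to 48 h (-0.80 to -0.48, lost without 1, 2, 3, 5 and 6), MYH1F over harvests (0.00616 to 0.0984, lost without 3), MYH15 at 12 h (0.18 to 0.21, lost without 1, 2, 3, 4, 5 and 6), MYH15 48 against 0 h in hypoxia (0.19 to 0.27, lost without 1, 2 and 5), MYH15 normoxia step to 24 h (0.17 to 0.21, lost without 1, 4 and 6), MYH15 hypoxia step to 12 h (0.14 to 0.24, gained without 4), MYH15, any change in normoxia (0.0307 to 0.137, lost without 1, 2, 4, 5 and 6), MYH15, any change in hypoxia (0.00491 to 0.158, lost without 1, 2, 5 and 6), MYH1B at 36 h (0.39 to 0.60, lost without 1, 2, 4 and 5), the contractile median 48 against 0 h in normoxia (0.12 to 0.50, moved without 1, 3 and 5), the contractile median 48 against 0 h in hypoxia (0.82 to 1.42, moved without 1, 3 and 5) and the ratio of MYH15 to MYH1D at 36 h (0.14 to 0.25, lost without 1, 2, 3, 5 and 6). Same-numbered libraries correlated at -0.32 to 0.78 in deviations, but ranked alike in total at 12 h. Under the replicate block MYH1E at 48 h was 1.34 (adjusted p = 7.56e-14) and MYH1D at 48 h -0.18 (adjusted p = 0.0442), and no call on the level of a member between oxygen levels or from 0 to 48 h changed. For ratios the block was an exact sign-change test within replicate numbers (smallest p 0.03125 with 6 pairs, 0.0625 with 5). It could call none unless all oxygen differences were at 0.03125. Its 0 calls of 18 (7 at an unadjusted p under 0.05) decide nothing. The 4 MYH1E differences had an adjusted p of 0.0804, as had the other called ratios, except MYH15 at 36 h (0.1125). Numbers of genes called by edgeR, with in brackets the lowest and highest over the other settings and the number without the 17 libraries, were 81 (42 to 131, 24) for hypoxia against normoxia at 12 h, 84 (42 to 92, 66) for 24 h, 74 (33 to 91, 50) for 36 h, 101 (80 to 109, 22) for 48 h, 184 (149 to 204, 68) for 48 against 0 h in normoxia, 200 (169 to 210, 170) for 48 against 0 h in hypoxia, 82 (55 to 102, 52) for the normoxia step to 12 h, 175 (55 to 212, 39) for the normoxia step to 24 h, 26 (10 to 28, 19) for the normoxia step to 36 h, 5 (1 to 15, 0) for the normoxia step to 48 h, 123 (85 to 151, 97) for the hypoxia step to 12 h, 46 (13 to 68, 63) for the hypoxia step to 24 h, 41 (15 to 63, 28) for the hypoxia step to 36 h, 18 (0 to 45, 8) for the hypoxia step to 48 h, 271 (191 to 302, 147) for any change in normoxia, 231 (176 to 279, 212) for any change in hypoxia, 48 (21 to 61, 13) for a change of the oxygen difference over harvests and 42 (20 to 75, 0) for the oxygen difference at 48 minus that at 12 h. Where 0 genes were called, 51 had an unadjusted p under 0.05 in the hypoxia step to 48 h without replicate 3, and 3 in the normoxia step to 48 h and 38 for the difference 48 minus 12 h without the 17 libraries. Reference genes moved the median of all genes by -0.125 at 12 h and by -0.184 in the normoxia step to 24 h. Transcripts were not tested alone, since each member has 1. Low counts limit MYH1F.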
